A study of Homo sapiens with 20 samples.

Results

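Of 208376 regions of open chromatin found in lung cancer cells by Omni-ATAC-seq, 7839 lay more than 3000 bp from any transcription start site (TSS) of the deposited annotation and were open in every library, and these constitutively open distal regions are described here. They were chosen by pooling the broad peaks of 8 libraries (591387 peaks), merging peaks that overlapped by at least 1 bp, and keeping the regions whose smallest deposited distance to a TSS exceeded 3000 bp and that held a peak in all 8 libraries. They made up 4.43% of the 177088 distal regions, of which 86040 were open in 1 library only. In contrast, 12275 regions within 3000 bp of a TSS (promoter regions) were open in all 8 libraries.

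The study treated human lung cancer cell lines with decitabine (DAC), a nucleoside that traps DNA methyltransferases on DNA and so lowers methylation, and profiled messenger RNA and chromatin. Omni-ATAC-seq uses a transposase that cuts exposed DNA, so that its read pileups mark accessible chromatin. The 4 lines A549, H1299, CL1-5 and PC9 were each profiled after DAC (100 nM for 72 h, then 3 days in drug-free medium) and after Mock treatment with PBS, with 1 library per line and treatment. mRNA-seq covered these lines and CL1-0 and H1792, with 12 libraries in all. All are established cell lines that share no deletion or transgene by their labels, the lines serve as replicates, and no line has a second library of the same treatment.

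Open regions far from genes are mostly enhancers, where transcription factors bind and from which they act on promoters, and insulator sites, where CTCF binds with cohesin at the anchors of chromatin loops. Enhancers tend to be open in some cell types only, whereas CTCF sites are open in most. DNA methylation keeps many repeated elements of the genome closed, which makes such elements a class of interest after DAC.

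The peak lists differed in length, from 45354 peaks (H1299 Mock) to 97584 (library labelled CL1-5, DAC), and the DAC list was longer than the Mock list in 4 of 4 lines. The regions described here therefore made up 27.5% of the distal regions in H1299 Mock and 10.4% in the library labelled CL1-5 after DAC. The read depth of each single ATAC-seq library is not given in the sources used here. The libraries labelled CL1-5 and PC9 went against their labels when set beside the mRNA-seq. Of 395 genes expressed in PC9 (at least 1 FPKM in Mock) and not in CL1-5 (at most 0.1 FPKM), 56.7% had a peak at their promoter in the Mock library labelled PC9, against 93.2% in that labelled CL1-5. Of 337 genes expressed in CL1-5 and not in PC9, the shares were 85.5% and 65.0% in the same order. The deposited peak lists of these samples also carry the name of the other line. They are called the libraries labelled CL1-5 and labelled PC9, and values that pair them with RNA are given both ways. A comparison of DAC with Mock within a line does not depend on which of the names is right. In Mock mRNA, summed epithelial markers (KRT8, KRT18, KRT19, EPCAM, CDH1) ranged from 0.986 FPKM in CL1-0 to 3015 in A549, so that they were nearly absent in CL1-0, and summed leukocyte markers lay at 0.583 to 1.10 FPKM.

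The sequences of representative regions are shown first, because the motif classes below organise the results. All are read from the GRCh37 (hg19) reference, 5′ to 3′. The first set holds regions with a match to the CTCF core motif and among the highest mean ranks over the 8 libraries, with the motif in capitals.
CTCF, near HDHD5, chr22:17652453-17652564, plus strand: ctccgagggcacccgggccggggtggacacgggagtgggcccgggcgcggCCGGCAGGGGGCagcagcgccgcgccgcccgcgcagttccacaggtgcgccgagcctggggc
CTCF, near LINC01555, chr1:85086481-85086592, minus strand: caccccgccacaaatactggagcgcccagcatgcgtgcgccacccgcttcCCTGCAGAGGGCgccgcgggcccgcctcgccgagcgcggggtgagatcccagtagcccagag
CTCF, near GATAD1, chr7:92054025-92054109, plus strand: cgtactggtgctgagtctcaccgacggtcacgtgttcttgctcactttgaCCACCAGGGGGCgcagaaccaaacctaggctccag

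The second set holds those with the AP-1 motif TGANTCA, which FOS and JUN family dimers bind, with 1 match of each in capitals. The MIR4464 sequence holds a further TGACTCA in lower case.
AP-1, near GAP43, chr3:115503225-115503331, plus strand: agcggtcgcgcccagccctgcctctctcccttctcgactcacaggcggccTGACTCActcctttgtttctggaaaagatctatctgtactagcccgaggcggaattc
AP-1, near MIR4464, chr6:91078836-91078940, plus strand: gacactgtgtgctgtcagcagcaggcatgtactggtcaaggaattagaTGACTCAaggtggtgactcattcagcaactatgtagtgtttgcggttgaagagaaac
AP-1, near STAM2, chr2:153057134-153057240, plus strand: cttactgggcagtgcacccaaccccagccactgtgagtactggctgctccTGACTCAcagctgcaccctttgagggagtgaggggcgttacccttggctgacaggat

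The last set holds the largest single rise, the largest single fall and the highest-ranked region without a repeated 31-mer, with each CpG, the dinucleotide that DNA methyltransferases act on, in capitals.
Largest rise, near WDR60, chr7:158703216-158703515, plus strand: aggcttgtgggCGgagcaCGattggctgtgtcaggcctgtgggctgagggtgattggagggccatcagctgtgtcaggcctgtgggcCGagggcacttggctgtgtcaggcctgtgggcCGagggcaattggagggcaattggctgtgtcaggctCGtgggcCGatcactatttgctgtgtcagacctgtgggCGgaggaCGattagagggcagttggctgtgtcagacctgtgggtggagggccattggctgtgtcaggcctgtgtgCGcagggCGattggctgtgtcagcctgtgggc
Largest fall, near PTPRE, chr10:129809634-129809933, plus strand: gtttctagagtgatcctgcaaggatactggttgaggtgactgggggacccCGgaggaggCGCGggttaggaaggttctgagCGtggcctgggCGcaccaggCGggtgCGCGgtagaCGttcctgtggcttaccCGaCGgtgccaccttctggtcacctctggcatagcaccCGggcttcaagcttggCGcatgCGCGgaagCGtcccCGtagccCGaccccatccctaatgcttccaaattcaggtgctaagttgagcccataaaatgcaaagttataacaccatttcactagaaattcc
Highest without repeats, near RNU6-16P, chr7:25902002-25902301, plus strand: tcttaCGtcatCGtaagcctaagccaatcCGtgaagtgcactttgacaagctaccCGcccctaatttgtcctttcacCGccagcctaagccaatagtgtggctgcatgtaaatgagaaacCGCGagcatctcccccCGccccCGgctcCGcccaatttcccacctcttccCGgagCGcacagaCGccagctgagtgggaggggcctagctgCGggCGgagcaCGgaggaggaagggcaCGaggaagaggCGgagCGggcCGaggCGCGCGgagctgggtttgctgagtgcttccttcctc

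The 7839 regions were wide and lay nearer to genes than other distal regions. Their median width was 1029 bp (range 205 to 6958 bp), against 477 bp for the remaining distal regions and 1340 bp for promoter regions open in all libraries. The merged width grows with the number of lists in which a region is found, so that these medians are a description and not a comparison. The median distance to a TSS was 20209 bp, against 32481 bp for the remaining distal regions. A total of 5786 lay over 10000 bp and 671 over 100 kb from a TSS. By the deposited annotation, 49.9% were intergenic, 31.4% intronic and 10.1% exonic, whereas 47.7%, 43.5% and 5.24% of the distal regions open in 1 library were. In 7005 of the 7839 regions (89.4%) each library contributed exactly 1 peak, and in 7443 (94.9%) at least 1 base was covered in every library. Chromosome 19 held the most per megabase of the autosomes (8.36) and chromosome 13 the fewest (0.790). In GENCODE version 44 lifted to GRCh37, 34.6% had a transcript start within 3000 bp, against 21.4% of all distal regions, so that these are distal by the deposited annotation only.

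The 3 regions just inside the distance limit lay 3002 bp (near ITPRIPL1), 3021 bp (near SORBS3) and 3023 bp (near KYAT1) from a TSS. The 3 just outside lay at 2999 bp (near CTSB), 2997 bp (near FSCN1) and 2996 bp (near CFAP73).

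CTCF core matches became more common with each further library in which a distal region was open. In windows of 300 bp centred on the interval covered by most libraries, the CTCF core motif, searched on both strands, was found in 1.15% of distal regions open in 1 library, in 4.91% of those open in 4, in 13.5% of those open in 7 and in 17.4% of those open in all 8. The share was 3.46% over all regions and 3.94% over promoter regions open in all 8 libraries. In contrast, the AP-1 motif reached 12.8% in 1 library, 25.8% in 6 and 20.5% in all 8, against 15.9% over all regions. Its share was 20.9% in distal regions open in 2 to 7 libraries, close to that in all 8. The GC box GGGCGG, bound by SP and KLF factors and holding a CpG, went from 8.55% to 29.5% (16.3% over all regions and 72.7% of promoter regions). Motifs of factors tied to cell type did not follow this order: TGTTTAC of the forkhead (FOXA) family stood at 4.31% in 1 library and 3.29% in 8, and AGATAAG of the GATA family at 3.34% and 2.03%. The GC content moved along with these shares, with a median of 50.7% in 1 library and 57.7% in 8, and its part in them was not tested. A match to these letters is a description of the sequence and not a measured binding site.

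**Figure D1:**
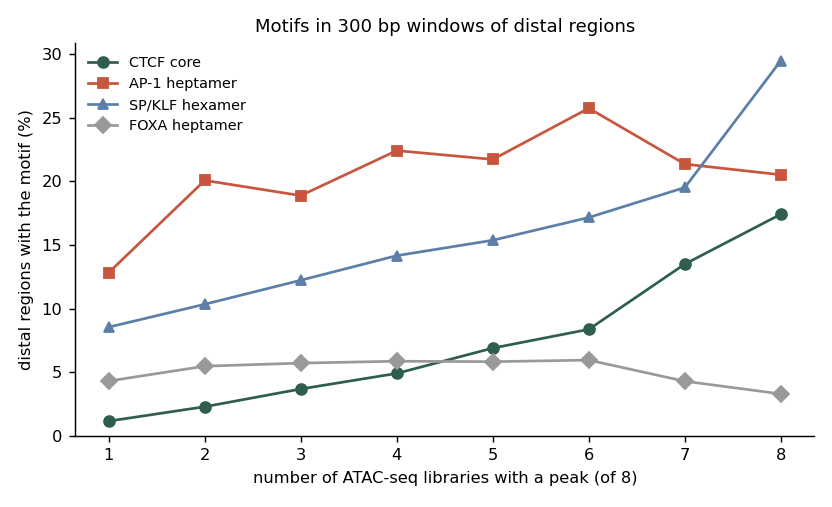
Share of distal regions (%, vertical axis) whose 300 bp window holds each motif, by the number of ATAC-seq libraries in which the region has a peak (horizontal axis, 1 to 8). The CTCF core share goes from 1.15% to 17.4% and the SP/KLF share from 8.55% to 29.5%, while the AP-1 share is highest at 6 libraries (25.8%) and the FOXA share is 3.29% at 8.

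Among the 7838 regions with a reference sequence, 1366 held the CTCF core, 1609 the AP-1 motif, and 114 both. Accessibility was compared as a percentile: in each library the strongest fold enrichment of a region over local background was ranked among the 20114 regions open in all 8 libraries, distal and promoter, from 0 to 100. Fold enrichments of different lists were not compared with each other, since the depth of each library is not given. Regions with only the CTCF core had a median mean percentile of 45.4, those with only AP-1 44.8, and those with neither motif 36.8. Regions with only AP-1 varied more between libraries than the others. Their median percentile in Mock was 38.0 in A549, 34.6 in H1299, 58.1 in the library labelled CL1-5 and 50.02 in that labelled PC9, whereas regions with neither motif had medians of 37.3, 32.1, 37.9 and 34.6. The AP-1 regions thus ranked higher than regions without either motif in both libraries of uncertain label and close to them in A549 and H1299. The median SD of a region's percentile over the 8 libraries was 16.5 with AP-1 only, 12.3 with the CTCF core only and 11.96 with neither.

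Along the ranking, the lowest decile of the regions (mean percentile up to 12.3) held the CTCF core in 8.29% and AP-1 in 10.3%, and had a median width of 1618.5 bp. The share with CTCF was highest in decile 8 (22.8%) and that with AP-1 in decile 9 (28.8%), and the highest decile had a median width of 821 bp. Thus the lowest decile by peak fold enrichment was also the widest. Each line ranked the regions in a similar way before and after DAC, with Spearman's rho of 0.819 to 0.864 between the Mock and DAC libraries of a line over the 7839 regions, and 0.592 to 0.747 between lines. These correlations are descriptions over regions of the same libraries.

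Of the 10 highest-ranked regions, 8 held sequence that is repeated in the genome. A region of 264 bp near MIR4510 (intergenic) had a percentile of 99.98 to 100 in every library and a fold enrichment from 20.6 to 31.8. In its window, 96.7% of the 31-mers occurred more than once in the genome. Regions near HSD17B3 (chr9:99002236-99002496), AQP7P1 (chr9:67320539-67320969) and C1QTNF3 (chr5:34244417-34245421) also belonged to the 10 highest, with 78.1%, 82.6% and 77.8% repeated 31-mers. Where a read matches several places equally well, an aligner such as BWA reports it at one of them, and a mapping-quality filter is not given in the sources used here, so that the part of such placement in these ranks was not tested. The other two, near RNU6-16P (chr7:25901775-25902489, intergenic) and MRPS27 (chr5:71603823-71604565, intron 2), had no repeated 31-mer. The RNU6-16P region held percentiles of 99.7 to 99.9 in the 8 libraries and 23 CpG in its window. MRPS27 encodes a mitochondrial ribosomal protein, and its region held 99.7 to 99.9 with 25 CpG. In GENCODE, a transcript start of MRPS27 fell within this region, so that it is distal by the deposited annotation only. The GENCODE start nearest to the RNU6-16P region lay 6833 bp away. The lowest-ranked regions were wide stretches with low enrichment, including 3 regions of an unplaced contig annotated to LOC100507412, a 1727 bp region near BCL9L and a 5314 bp region at the end of SQSTM1, the gene of an autophagy receptor. NEAT1, a nuclear long noncoding RNA that scaffolds paraspeckles, held 1 of the 5 widest regions (5583 bp, mean percentile 1.66). The widest of all, 6958 bp near ANKRD26P1, lay 15975 bp from an assembly gap of chromosome 16.

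Of the 5 regions whose percentile varied most over the libraries, 3 held the AP-1 motif, and their ranks differed between lines rather than with DAC. A region 33726 bp upstream of CYP2S1, a cytochrome P450 gene (chr19:41664921-41665389), had a percentile of 60.1 in A549 Mock, 7.50 in H1299 Mock, 4.54 in the Mock library labelled PC9 and 96.2 in the one labelled CL1-5. After DAC it stood at 60.04, 5.16, 16.4 and 99.1. Thus the libraries labelled CL1-5 were the highest, A549 followed, and H1299 and the libraries labelled PC9 were low in both treatments. CYP2S1 FPKM in Mock was 31.3 in A549, 0 in H1299, 0.0385 in CL1-5 and 5.01 in PC9. A549 was high in both assays. By their labels, the CL1-5 libraries pair a high rank with 0.0385 FPKM and the PC9 libraries a low one with 5.01 FPKM, and with the names exchanged the high rank pairs with 5.01 and the low one with 0.0385 FPKM. A region in the first intron of a gene near LDHAL6B (chr15:59574907-59576591) stood at 66.2, 9.84, 16.5 and 99.8 in the same Mock libraries. A region 10585 bp upstream of ADRA1B, an adrenergic receptor gene (chr5:159332477-159333155), was low in A549 Mock (4.81) and high in the Mock libraries labelled PC9 (85.0) and CL1-5 (81.0).

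The comparison of DAC with Mock asked whether regions that are open under both conditions changed their rank within the open genome. As a group, these regions did not move in the same direction in all lines on this scale. The percentile changed by a median of -0.31 in A549, -0.05 in H1299, -0.40 in libraries labelled PC9 and 2.09 in libraries labelled CL1-5, with a mean of 0.33 ± 1.18 (SD, n = 4 lines). Only the libraries labelled CL1-5 were above 0, and without them the mean was -0.17. Ranked among all regions of a list, the mean was 2.84 with 4 of 4 lines above 0, and with summed peak width ranked it was -0.66 with 0 of 4 lines above 0. The difference from promoter regions open in all libraries averaged 0.45 ± 1.86 points and was -0.28 without those libraries. These distal and promoter regions make up the whole ranked set, so their mean ranks move in opposite directions by construction. Peaks in the regions were wider after DAC in 4 of 4 lines, by a median of 0.03 in A549, 0.13 in H1299, 0.08 in libraries labelled CL1-5 and 0.09 in libraries labelled PC9 on the log2 scale (summed peak width, mean 0.08 ± 0.04). In promoter regions the width changed by -0.0098, 0.07, 0.0175 and 0.05 in the same order. With 4 lines, a two-sided sign-flip permutation test cannot give a p under 0.125.

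In limma with the line as a block, 0 of the 20114 regions passed an adjusted p of 0.05 in either direction (0% higher and 0% lower of all tested), with a smallest adjusted p of 0.0958. At an unadjusted p under 0.05, 498 of the 7839 distal regions (6.35%) were higher and 365 (4.66%) lower after DAC, against 4.22% higher and 4.33% lower of all regions tested. Moreover, 755 (9.63%) were higher in 4 of 4 lines and 648 (8.27%) lower, against 9.23% and 8.98% of all. The shares in 4 of 4 lines lie near the background, and that of p under 0.05 was above it for higher and close to it for lower regions. On the log2 fold enrichment after quantile normalization, limma called 5 of the 20114 regions, all higher after DAC (0.0249% of those tested), and 4 of them were distal, near WDR60 (adjusted p = 0.00277), MRPS24 (adjusted p = 0.00778), SLA2 and CFAP44 (adjusted p = 0.0147 each). With the same number of peaks in each list limma called 1 of 13925 regions (0.00718%), the one near WDR60 (adjusted p = 0.0454).

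The largest rise was found at a region in intron 11 of WDR60 (chr7:158702954-158703786, 25699 bp from a TSS), a subunit gene of the ciliary dynein-2 motor. Its percentile was 32.9 in A549, 6.28 in H1299, 15.4 in the library labelled CL1-5 and 28.5 in that labelled PC9 under Mock. After DAC it was 87.5, 82.8, 92.0 and 97.4. All 4 DAC libraries exceeded all 4 Mock libraries, with a mean rise of 69.2 points (SE 6.47, adjusted p = 0.0958 in limma). The region was picked as the largest rise in 4 of 4 lines, and the share of all regions without such overlap was not counted. In its window, 3.33% of the 31-mers were repeated in the genome. WDR60 FPKM had a log2 difference of -0.21 ± 0.17 (SE, adjusted p = 0.601 in limma).

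The next rises lay near SLA2 (chr20:35305206-35306163, intron, 58.7 points), MRPS24 (chr7:43874273-43874681, intergenic, 55.8 points), CFAP44 (intron 22, 54.5 points) and POM121L4P (chr22:21010938-21011720, exon, 46.9 points). The CFAP44 region, in the gene of a protein of cilia and flagella, went from 17.6 to 89.4 in A549, from 29.6 to 79.5 in H1299, from 10.6 to 64.3 in libraries labelled PC9 and from 11.6 to 54.1 in libraries labelled CL1-5. In these 4 regions as well, which were picked by the size of their rise, the lowest DAC percentile exceeded the highest Mock percentile. The SLA2 and MRPS24 regions rose least in H1299, by 35.4 and 47.7 points.

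The falls were smaller. The region with the largest fall lay in intron 2 of PTPRE, a receptor tyrosine phosphatase gene (chr10:129809561-129810066), and held 18 CpG and no repeated 31-mer. It went from 68.4 to 35.7 in A549, from 53.7 to 38.1 in H1299, from 59.95 to 39.6 in libraries labelled PC9 and from 68.4 to 16.2 in libraries labelled CL1-5. The groups did not overlap in this region, which was picked as the largest fall. The mean change was -30.2 points (SE 7.60, adjusted p = 0.568 in limma). A region upstream of ADIPOQ (chr3:186542794-186545656) changed by -29.8 points on average, from -8.60 points in A549 to -55.7 in libraries labelled CL1-5. Regions near MICAL3 (-27.7 points) and near SMAD6, an inhibitor of BMP signaling (-27.4 points), were also among the 5 largest falls.

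**Figure D2:**
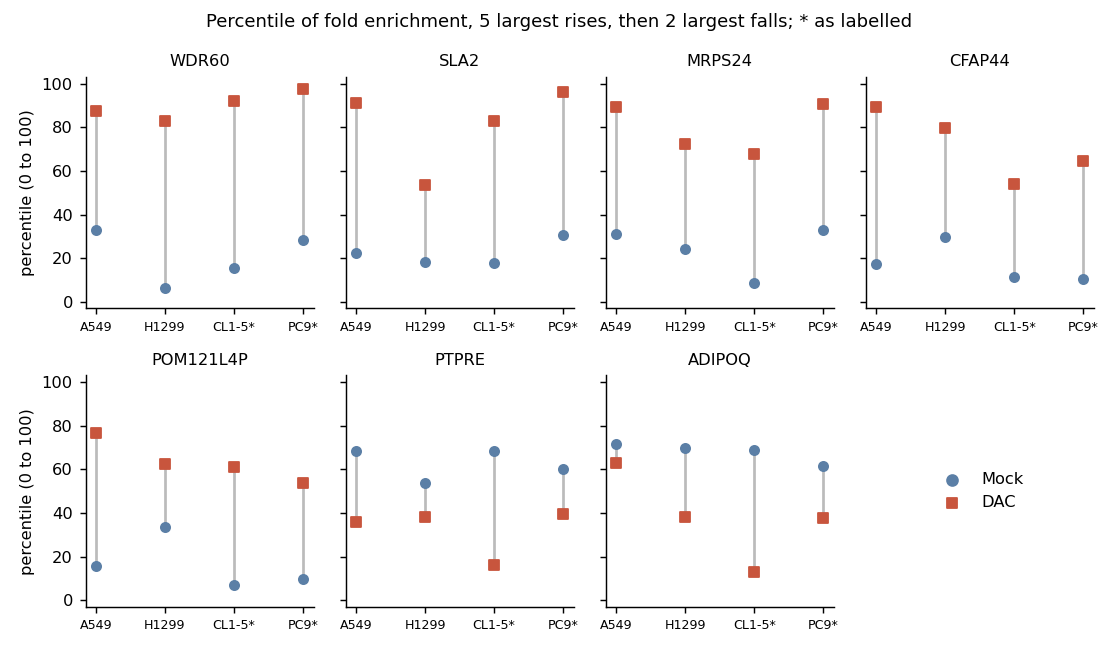
Percentile of fold enrichment among regions open in all libraries (vertical axis, 0 to 100) in the Mock (circles) and DAC (squares) library of each line (horizontal axis) for the 5 largest rises and the 2 largest falls (PTPRE and ADIPOQ), each titled by its nearest gene, with an asterisk where the line is as labelled. The regions were picked by the size of their change. In each of the 5 panels of rises all DAC values lie above all Mock values, and the WDR60 region moves by 69.2 points on average against -30.2 points at PTPRE.

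Rises were more frequent among regions that resemble each other in sequence. An all-against-all alignment of the windows (blastn, at least 150 bp aligned) grouped 974 regions into 179 families of 2 or more, 13 of them with at least 10 regions. The 974 regions rose by a median of 2.02 points in A549, 2.51 in H1299, 2.35 in libraries labelled PC9 and 5.12 in libraries labelled CL1-5, whereas the 6865 without a family had medians of -0.63, -0.40, -0.79 and 1.65. Of the former, 21.7% were higher in 4 of 4 lines and 5.03% lower, and of the latter 7.92% and 8.73%. No repeat annotation was used here, so families are named by their size and letters. The families were examined after their values had been seen, and their changes are given without a test.

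A family of 80 regions on 20 chromosomes (median pairwise identity 83.8%) moved furthest among the 10 largest families. Its median change was 15.3 points in A549, 15.03 in H1299, 9.94 in libraries labelled CL1-5 and 24.4 in libraries labelled PC9, with a mean of 16.1 ± 6.004 (SD, n = 4 lines). With summed peak width ranked in place of fold enrichment (added after seeing the data), the mean was 6.98. The median percentile went from 19.6 to 43.7, from 17.8 to 39.8, from 12.3 to 21.3 and from 20.4 to 54.0 in this order. Thus these regions ranked low in every Mock library, and least so after DAC in libraries labelled PC9. A total of 78 of 80 had a mean change above 0. In 4 of 4 lines, 47 (58.8%) were higher and 0 lower, against 9.23% and 8.98% of all 20114 regions. At an unadjusted p under 0.05 in limma, 49 were higher and 0 lower, against 4.22% and 4.33% of all regions. None passed after adjustment (smallest adjusted p = 0.236). Among the 755 constitutively open distal regions higher in 4 of 4 lines, 47 belonged to this family. Among the 300 largest of these rises 38 did, and among the 300 largest falls in 4 of 4 lines 0 did. The family was chosen after these values were seen and its regions resemble each other, so these counts describe it and are not a test.

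The windows of the family were rich in CCAAT, the letters bound by the trimeric factor NF-Y. The region near LOC100129917 held 6, that near CFAP44 held 9 and that near VWF 5. The first has the most alignment partners (59) but changed little (4.55 points), whereas the VWF region went from 23.6 to 68.3 in A549, from 39.5 to 87.9 in H1299, from 20.6 to 50.7 in libraries labelled CL1-5 and from 35.5 to 84.0 in libraries labelled PC9. In all, 61 of the 80 held 3 or more (median 4), against 2.28% of the 7838 windows of constitutively open distal regions and 2.06% of all regions. Their GC content (median 48%) and CpG number (median 4) were below those of all constitutively open distal regions (57.7% and 7). By the deposited annotation, 51 of the 80 were intergenic and 25 intronic. A median of 70.4% of the 31-mers of a window were repeated in the genome. In the 14 of these regions with less than 50% repeated 31-mers, the median change was 6.82 points in A549, 12.002 in H1299, 5.08 in libraries labelled CL1-5 and 14.4 in libraries labelled PC9. These changes were smaller than in the whole family and above 0 in each line. Such windows can still hold repeated 31-mers, and the part of read placement in the change of the family was not tested.

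**Figure D3:**
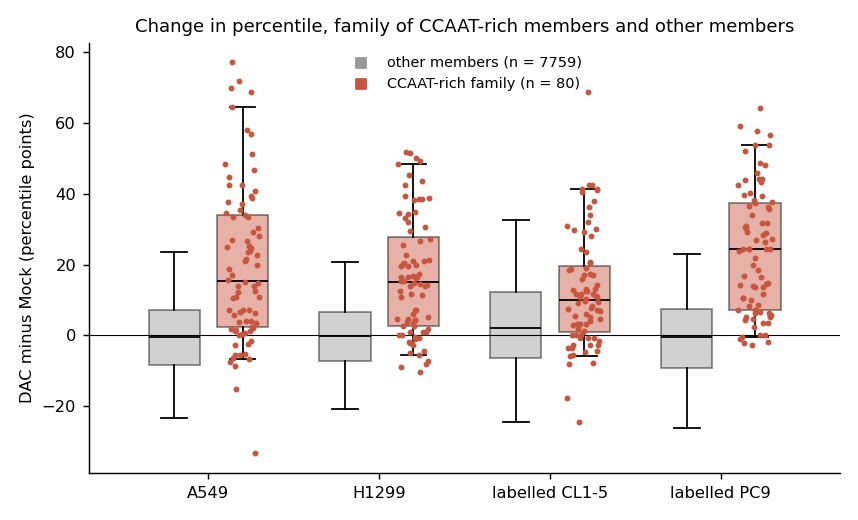
Change in percentile, DAC minus Mock (vertical axis, percentile points), by line (horizontal axis) for the 80 regions of the CCAAT-rich family (right box of each pair, 1 point per region) and the other 7759 constitutively open distal regions (left box). Boxes give the quartiles and the median, and whiskers the 5th to 95th percentile. The family medians are 15.3, 15.03, 9.94 and 24.4 points, and those of the other regions -0.39, -0.12, 2.01 and -0.52.

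Copies of this sequence outside the regions described here were examined in the same libraries. The LOC100129917 window aligned to 3689 places in GRCh37. A total of 3458 overlapped neither a constitutively open distal region nor a promoter region of any library. Of these, 584 had a peak in A549 Mock and 1319 after DAC. In H1299 the numbers were 432 and 989, in libraries labelled CL1-5 they were 382 and 548, and in libraries labelled PC9 590 and 1262. The DAC list held more copies with a peak in 4 of 4 lines, by factors of 2.26, 2.29, 1.44 and 2.14. The DAC lists were longer in general. The number of all other distal regions with a peak rose by factors of 1.53, 1.77, 1.19 and 1.40, below the factor of the family of 80 in each line. For copies of a family of 21 the factors were 2.61, 1.79, 1.39 and 1.76, and of a family of 81 1.30, 2.37, 1.76 and 1.25. Larger factors than those of the family of 80 thus occurred in single lines. The part of read placement in these factors was not tested. With the strongest peaks only and as many of them in each list as in the shortest (an alternative chosen after seeing the data), the factor averaged 2.33 for the family of 80 and 1.04 for all distal regions, constitutively open ones included.

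The other large families moved less. A family of 27 regions, which includes the SLA2 region, rose by a mean of 8.45 ± 1.89 points with each line above 0, a family of 21 by 8.22 ± 4.20 and a family of 19 by 10.8 ± 5.81. The largest family (138 regions, of which 95 aligned to RN7SL2, the RNA of the signal recognition particle from which Alu elements derive) changed by 1.29 ± 3.07, and a family of 81 by 3.06 ± 4.94 with 2 of 4 lines above 0. A family of 49 regions, 46 of them within 100 kb of an assembly gap, changed by 3.79 ± 3.61. The families of 19, 27 and 49 had a median of 0%, 6.30% and 72.2% of repeated 31-mers. Over all constitutively open distal regions, those with no repeated 31-mer (5947) had a mean change of -0.28, those with up to 10% (552) 1.05, those with more than 10% and under 50% (688) 1.67, and those with at least 50% (651) 3.29, and the part of read placement in this was not tested.

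The nearest gene of 7001 regions was in the mRNA-seq table, which gave 4835 genes. These genes were expressed more than those nearest to other distal regions only. Their median in Mock cells was 2.26 FPKM in A549 and H1299, 2.61 in H1792, 2.43 in PC9, 2.207 in CL1-5 and 1.76 in CL1-0, against 1.18, 1.21, 1.44, 1.29, 1.15 and 1.07 for the 12077 other genes. The difference of the medians was 0.83 ± 0.08 on the log2(FPKM + 0.1) scale (SD, n = 6 lines) and was above 0 in 6 of 6 lines, CL1-0 and H1792 without ATAC-seq included. The difference was 0.59 ± 0.07 among genes that also have a promoter region and 0.25 among genes whose mean FPKM reached 0.1. The level followed the number of constitutively open distal regions to which a gene was nearest, from 1.65 to 2.31 FPKM with 1 region to 2.39 to 5.02 FPKM with 4 or more, and CL1-0 alone was lower with 4 or more than with 3 regions (2.39 against 2.54).

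**Figure D4:**
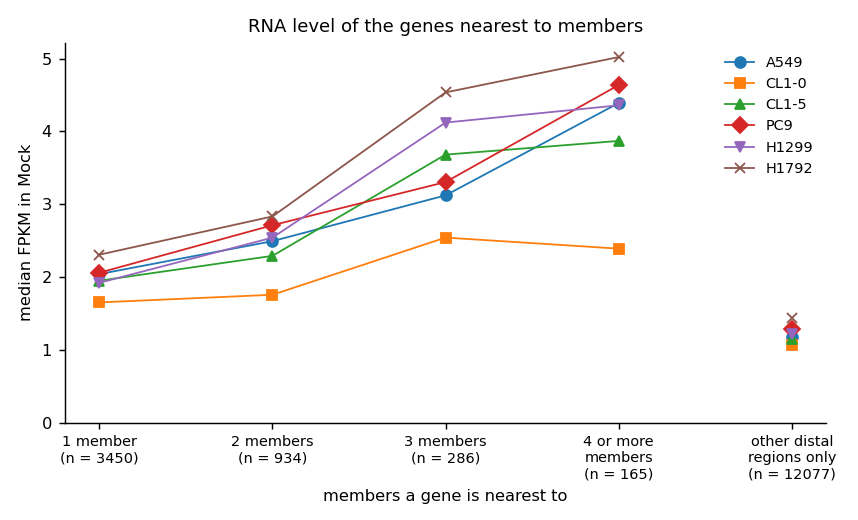
Median FPKM in the Mock library of each of 6 lines (vertical axis) for genes nearest to 1, 2, 3 or 4 or more constitutively open distal regions (horizontal axis, with the number of genes), and for the 12077 genes nearest to other distal regions only. The 165 genes with 4 or more lie between 2.39 and 5.02 FPKM, and the 12077 other genes between 1.07 and 1.44.

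The genes nearest to the most regions differed in how much repeated sequence these held. KCNMA1, the gene of a calcium-activated potassium channel, was nearest to 12 regions (chr10:78923604-79471811), none of them mainly repeated and 6 with the AP-1 motif. Its Mock FPKM was 0.604 in A549, 3.85 in H1299, 5.72 in CL1-5 and 0.442 in PC9. SMAD3, the transducer of TGF-beta signals, was nearest to 9 regions, none of them mainly repeated. In contrast, CYTOR had 11 regions, all mainly repeated, CWH43 had 11 with 10 mainly repeated, LOC441666 10 with 7 and LSP1P4 10 with 6, at distances of up to 1365153 bp.

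The gene lists were chosen with earlier results of these data known. Of 32 genes of growth and stress response, 22 were nearest to at least 1 of the regions and to 64 in all, among them DUSP1, a MAP kinase phosphatase (6 regions), EGFR (5), GADD45A (5) and GADD45B (5). Of 35 actin and focal adhesion genes, 21 were nearest to 43 regions, with 4 each at ACTG1, ACTN1 and ITGB1. Of 14 YAP target genes, 7 were nearest to 15 regions, 3 each at AMOTL2, CRIM1 and NT5E. Of all 22603 genes tested in limma, 4093 were nearest to at least 1 of the regions. None of the genes of these lists passed an adjusted p of 0.05 in limma on FPKM in 5 lines, and their median log2 differences were -0.03, -0.06 and 0.11.

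Few of the nearest genes changed in RNA. Of the genes tested in limma over 5 lines, 3 of the nearest genes passed an adjusted p of 0.05, all of them higher after DAC and 0 lower, against 0.119% higher and 0% lower of all 22603 genes. At an unadjusted p under 0.05, 384 of the 4093 nearest genes (9.38%) were higher and 179 (4.37%) lower, against 8.07% and 4.4% of all genes. MAGEB2, a cancer testis antigen gene on the X chromosome, went from 0.029 to 18.0 FPKM in A549, from 0.0217 to 90.3 in H1299, from 0.0789 to 4.28 in CL1-0, from 0.756 to 10.97 in CL1-5 and from 0 to 9.98 in PC9. It was thus higher in each of the 5 lines, with a log2 difference of 6.33 ± 0.77 (SE, adjusted p = 0.0483 in limma). In bulk RNA, expression in more cells and more RNA per cell cannot be told apart. ACP5, an acid phosphatase gene, rose by 2.60 ± 0.28 (SE, adjusted p = 0.0347 in limma) and IL2RB, an interleukin-2 receptor subunit gene, by 2.07 ± 0.23 (adjusted p = 0.0380), and both stayed at or below 3.01 FPKM. Their regions lay 552119, 8064 and 11503 bp away and changed by 4.64, 9.04 and 5.72 points on average, with no common direction over the lines. The calls depend on 1 library pair at a time: 0 of the 3 passed without A549, CL1-0, CL1-5 or H1299, and 1 passed without PC9.

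The genes nearest to the 80 regions of the CCAAT-rich family were not called either. Of 63 tested, 0 passed in limma, with 9 higher (14.3%) and 4 lower (6.35%) at an unadjusted p under 0.05, against 8.07% and 4.4% of all genes. VWF, the gene of von Willebrand factor and nearest to 6 regions, was at 0 to 0.0463 FPKM in the 5 Mock libraries and at 0.0293 to 1.37 after DAC, higher in 5 of 5 lines (log2 difference 1.91 ± 0.42, SE, adjusted p = 0.193 in limma). Over all regions, the change in rank was set beside the change in RNA within each line. The median log2 FPKM difference of the genes nearest to the decile of regions that rose most minus that of the decile that fell most was 0.06 in A549 and 0.04 in H1299. For libraries labelled CL1-5 it was -0.04 with either the CL1-5 or the PC9 RNA, and for libraries labelled PC9 it was -0.01 with the PC9 and -0.04 with the CL1-5 RNA.

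CTCF and subunit genes of AP-1, whose motifs were counted above, were expressed. CTCF lay between 11.2 and 20.9 FPKM in the 6 Mock libraries, with a log2 difference of -0.19 ± 0.12 after DAC (SE, adjusted p = 0.506 in limma). Its germline paralog CTCFL was at 0.0041 to 0.568 FPKM in the 5 Mock libraries of the fit and at 0.547 to 3.30 after DAC (log2 difference 3.31 ± 0.44, adjusted p = 0.0716 in limma). Among AP-1 subunits, FOSL1 was at 189 FPKM in H1299, 96.9 in H1792, 94.5 in CL1-5, 73.4 in PC9, 11.9 in A549 and 6.82 in CL1-0 under Mock. In FOSL1, A549, where regions with only AP-1 ranked close to the others, was low and both CL1-5 and PC9 were high. H1299 was the highest in FOSL1 and had the lowest rank of these regions. Other subunits had another order, with FOS at 121 FPKM in A549, 36.8 in CL1-5, 18.8 in PC9 and 0.486 in H1299 under Mock. Summed over the 10 AP-1 genes, Mock FPKM was 315 in A549, 263 in CL1-5, 258 in H1299 and 222 in PC9. None of the 10 AP-1, 12 CTCF and cohesin, 6 TEAD and YAP and 3 DNA methyltransferase genes passed an adjusted p of 0.05 (0.119% of all genes did). DNMT3B, a de novo DNA methyltransferase, had a log2 difference of 0.98 ± 0.16 and was higher after DAC in 5 of 5 lines (adjusted p = 0.110 in limma), and DNMT1, the maintenance enzyme, one of 0.09 ± 0.13.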

How the data were processed

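Omni-ATAC-seq was analysed in A549, H1299, CL1-5 and PC9 cells (8 libraries) and mRNA-seq in these lines and in CL1-0 and H1792 (12 libraries). Groups follow the labels, and lines are the replicates, so that p-values measure the spread between lines. The authors trimmed the ATAC-seq reads with CutAdapt, aligned them to hg19 with BWA, removed duplicate and mitochondrial reads, ran MACS2 on each library for broad peaks and took their annotation from ChIPseeker. The submitters' processing notes name BWA 0.7.17-r1188, SAMtools 1.9, Picard 2.21.4, MACS2 2.2.5, ChIPseeker 1.20.0, TopHat2 2.1.1 and DESeq2 1.24.0. Each deposited list gives the −log10 of p and of q for a peak, and its fold enrichment. For mRNA-seq, the authors aligned reads to hg19 with RSEM and bowtie2 and deposited FPKM values from DESeq2. The same table holds a mean normalized signal, by the authors, which served to recover reads (22234485 to 25303899 per library outside H1299, with whole numbers within 0.02 reads for 100% of the values under 100). In the H1299 libraries 80.0 to 82.6% came out whole, and their depth is not given. Its columns of fold changes and p-values hold the authors' own comparisons and were not used. There were 0 unused columns of single samples.

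The members and gene lists were chosen with earlier results of these data known. Peaks of the 8 lists were merged, and the strongest fold enrichment of each region was ranked in each list among the 20114 regions in all 8 libraries. Percentiles, and log2(FPKM + 0.1) in 5 lines where the mean FPKM reached 0.1, went into limma 3.58.1 (R 4.3.3) with a block for the line, a trend and Benjamini-Hochberg adjustment at 0.05. H1792 was left out of this fit, after the study's main comparison. The block comes from the labels, since Mock and DAC share a line, and percentiles of the members correlated at 0.819 to 0.864 within lines and at most 0.747 between lines. On simulated data the fit recovered 178 of 200 regions shifted by 30 points among 20114, and 185 of 200 genes changed 4-fold among 22603. Simulated regions shared a common spread, and each shift or fold was the same in all lines. The real values differ in both, so these shares do not carry over to real changes. Motifs were searched in windows of 300 bp of GRCh37, 31-mers were counted over the genome, families were joined with BLAST+ 2.17.0 (e-value 1e-10, at least 150 bp), and copies were joined within 1000 bp. Reference starts come from GENCODE 44 lifted to GRCh37. Python 3.11.15 with numpy 2.4.6, pandas 2.3.3 and scipy 1.17.1 was used, and figures were drawn with matplotlib 3.10.9.

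Regions were named by a rule: the 10 highest and 5 lowest by mean percentile, the 5 largest rises and 5 largest falls that went the same way in 4 of 4 lines, the 5 widest, the 5 of largest and 5 of smallest spread, 3 on each side of the distance limit, and 3 with each of the CTCF and AP-1 motifs, together with their nearest genes. Genes are the 10 nearest to the most regions, those past the threshold in limma, and the listed genes. Not all of them are printed, and some named genes and sequences are not reported here. The 80-region family, its VWF and LOC100129917 regions and its copies were chosen after values were seen. Alternatives changed the ranked set or measure, the peaks kept, the merging, the motif window, the pseudocount, the filters, the block, the trend and the lines.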

Additional observations from a re-analysis of the deposited data

Results flagged for a closer look

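In 29 groups of 4 to 6 lines, the line farthest from the others was compared with the range of its group, and 5 groups had a line set apart. Chance gives about 1 in 20 groups where these are independent and not picked by their values. Here some groups share values and some are regions picked by their change, so that rate cannot be applied.

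The libraries labelled CL1-5 stood apart in the change of the constitutively open distal regions, with a median of 2.09 points against -0.40 to -0.05 in the other lines. They stood apart as well in the change relative to promoter regions, with 3.21 points against -0.82 to -0.24. Since these distal and promoter regions are ranked together, this is not a separate observation. They had the longest Mock list (85710 peaks) and the longest DAC list (97584 peaks), and the part of list length in this was not tested.

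The regions near SLA2 and MRPS24 rose least in H1299. The SLA2 region rose by 35.4 points there and by 65.4 to 68.7 points elsewhere. The MRPS24 region rose by 47.7 points there and by 57.8 to 59.4 points elsewhere. H1299 had the shortest lists, with 45354 and 63541 peaks.

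The level of genes nearest to these regions, relative to genes nearest to other distal regions, was lowest in CL1-0, with a difference of 0.67 on the log2(FPKM + 0.1) scale against 0.82 to 0.88 in the other 5 lines. CL1-0 has no ATAC-seq library here.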

How the results depend on the processing

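Among results that answer a comparison, 109 alternatives kept the value within its limit and 44 moved it. A change of sign was not counted apart from these. The percentile change of the constitutively open distal regions was 0.33 in the main setting and reached -0.17 with a line left out. Among named regions and genes, 86 kept their side of the threshold, 32 lost it and 1 gained it, with no reversal. The number of constitutively open distal regions was 4902 with equal numbers of peaks per list, 5129 without regions near a reference transcript start, and 8664 to 12539 with a line left out (12539 without H1299). Their median change was 2.84 points, above 0 in 4 of 4 lines, when ranked among all regions of a list, and -0.17 to 0.57 with a line left out. The width change was 0.17 with the mean in place of the median. The family of 80 changed by 6.98 points when peak width was ranked, by 9.58 in regions with under 50% repeated 31-mers, and by 13.7 to 18.7 with a line left out (alternatives added after seeing the data). Its copies rose 2.76-fold with −log10 q above 2. limma called 5 regions, 4 of them distal and all higher, on quantile-normalized values, and 1 region, distal and higher, with equal numbers of peaks. Of the nearest genes, limma called 0 with a pseudocount of 1, without the filter, in the 4 lines with ATAC-seq or without the trend, 8 with H1792, and 0 to 1 with a line left out. Over the alternatives, the adjusted p ranged from 0.0281 to 0.236 for MAGEB2, from 0.0129 to 1 for ACP5 and from 0.0229 to 0.490 for IL2RB. The level difference of nearest genes was 0.55 with a pseudocount of 1, 0.25 with a mean FPKM of at least 0.1, 0.52 with the mean, and 0.59 with a promoter region. The CTCF share was 19.6% in 500 bp, 22.5% in the whole region and 47.5% with a shorter core (29.7% of all regions and 39.3% of promoter regions open in all 8), and the AP-1 share 25.8%, 39.6% and, away from reference starts, 22.9%. The cause of these shifts was not tested.

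Without the replicate block, limma called 0 regions and 1 nearest gene (MAGEB2), which was higher after DAC.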
